A study of Mus musculus with 8 samples.

Results

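The genes described here are 10 cyclic nucleotide phosphodiesterases, Pde1a, Pde1c, Pde3a, Pde3b, Pde4b, Pde4d, Pde5a, Pde7b, Pde8b and Pde10a, of 32285 genes listed. They were chosen by symbol, and each symbol matched 1 row of the gene list. The data are UMI counts (molecules counted once by their molecular barcode) from droplet libraries of single nuclei, taken from hearts of adult mice. In all, 8 libraries are labelled, 2 each of non-transgenic (nTg) female, nTg male, transgenic (Tg) female and Tg male mice, where Tg animals carry a constitutively expressed CCNA2 and nTg animals are described as wild type. Strain, age beyond adult, and the promoter that drives the transgene are not given in the sources used here, nor is it stated that the libraries came from separate animals, so p-values measure the spread between libraries only.

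A library was used where the size of its matrix fitted the barcodes deposited with it, which held for 5. These were both Tg female libraries (Tg female 1 and 2), both Tg male libraries (Tg male 1 and 2) and a single nTg library, nTg female 1. Values of single libraries are given throughout with nTg first, then Tg female 1 and 2, then Tg male 1 and 2. The other 3 nTg labels carried matrices with the same values as a Tg library each, so they were not analysed here. Ccna2, the gene of the transgene, gave 446, 0.53, 837, 237 and 145 CPM (counts per 1000000 UMIs) in cardiomyocytes. Ccna2 thus goes against the label of the first (nTg female 1) and of the second (Tg female 1), so that libraries are named by label and no genotype is read from the values.

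Phosphodiesterases hydrolyse the second messengers cAMP and cGMP, and so end signals that start at receptor-coupled and soluble cyclases. The families differ in substrate and control: PDE1 enzymes are activated by calcium and calmodulin, PDE3 enzymes split cAMP and are inhibited by cGMP, PDE4, PDE7 and PDE8 enzymes prefer cAMP, PDE5 prefers cGMP, and PDE10 takes both. In heart muscle, PDE3 and PDE4 isoforms limit the beta-adrenergic rise of cAMP near the calcium handling proteins, while in vascular muscle PDE3 and PDE5 are targets of vasodilator drugs.

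The sequences just upstream of transcription starts are shown for 5 genes whose transcripts were high in a few cell types: Pde1c, Pde4b and Pde4d, which were highest in cardiomyocytes, Pde5a, highest in smooth muscle, and Pde8b, highest in pericytes. Each run is the 250 bases before a RefSeq start (GRCm38.p6), 5′ to 3′ on the strand of the gene, and capitals mark matches to the motifs searched on both strands. Those were the E-box CANNTG, the core of the cAMP response element TGACG, the TEAD site GGAATG, the TATA box TATAAA and the CArG box. The windows lie at chr6:56362811-56363060 (minus strand) for Pde1c, chr4:102421305-102421554 (plus) for Pde4b, chr13:108653927-108654176 (plus) for Pde4d, chr3:122728908-122729157 (plus) for Pde5a and chr13:95250337-95250586 (minus) for Pde8b.
Pde1c: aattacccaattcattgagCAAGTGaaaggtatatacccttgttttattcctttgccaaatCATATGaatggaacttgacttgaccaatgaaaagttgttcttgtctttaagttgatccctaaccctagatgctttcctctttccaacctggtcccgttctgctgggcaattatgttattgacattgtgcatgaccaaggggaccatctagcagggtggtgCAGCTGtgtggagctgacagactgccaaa
Pde4b: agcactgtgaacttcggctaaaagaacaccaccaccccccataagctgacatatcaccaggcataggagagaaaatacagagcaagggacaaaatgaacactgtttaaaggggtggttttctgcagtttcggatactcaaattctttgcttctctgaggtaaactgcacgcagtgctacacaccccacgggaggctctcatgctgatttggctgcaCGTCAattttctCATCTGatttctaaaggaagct
Pde4d: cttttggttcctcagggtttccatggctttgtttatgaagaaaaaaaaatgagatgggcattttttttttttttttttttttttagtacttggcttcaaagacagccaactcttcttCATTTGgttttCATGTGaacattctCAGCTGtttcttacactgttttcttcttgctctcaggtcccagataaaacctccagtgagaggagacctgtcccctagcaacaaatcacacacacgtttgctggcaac
Pde5a: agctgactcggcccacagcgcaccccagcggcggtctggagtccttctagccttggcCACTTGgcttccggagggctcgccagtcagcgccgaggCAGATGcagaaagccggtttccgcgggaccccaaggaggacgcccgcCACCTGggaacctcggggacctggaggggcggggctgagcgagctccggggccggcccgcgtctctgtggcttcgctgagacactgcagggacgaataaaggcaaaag
Pde8b: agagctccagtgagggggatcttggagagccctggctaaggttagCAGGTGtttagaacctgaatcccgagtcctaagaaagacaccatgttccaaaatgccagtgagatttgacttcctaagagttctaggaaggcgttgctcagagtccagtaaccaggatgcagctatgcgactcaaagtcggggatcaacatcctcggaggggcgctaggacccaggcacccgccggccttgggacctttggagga
The windows of Pde1c, Pde4d and Pde5a each held 3 E-boxes, and those of Pde4b and Pde8b held 1 each. An E-box was present in 66.2% of all 32841 windows of that length in the table, so these matches are common. The window of Pde4b also held 1 core of the cAMP response element (written on the other strand as CGTCA), which 17.8% of windows hold. None of the 5 windows held a TEAD site (12.6% of windows), a TATA box (12.4%) or a CArG box (1.47%). The table had 21 windows for 8 of the 10 genes and none for Pde3a and Pde3b. Of these 5 genes, Pde1c, Pde4b and Pde8b had further windows in the table, so the counts belong to the windows shown. The further windows of Pde1c held 1 E-box each, those of Pde4b held 3, 2 and 0, and those of Pde8b held 0 or 1. None of the further Pde4b windows held a core of the cAMP response element. A match is a description of letters and not of a site in use.

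The genes are long (GRCm38, GENCODE vM21). Pde4d (ENSMUSG00000021699) spans chromosome 13 from 108449948 to 109953461 on the plus strand, 1504 kb with 20 annotated transcripts. Pde4b (ENSMUSG00000028525) spans 519.7 kb of chromosome 4 (102087543 to 102607259, plus strand). Pde1c (ENSMUSG00000004347) spans 499.3 kb of chromosome 6 (56069804 to 56569103, minus strand). The shortest is Pde3b (ENSMUSG00000030671), with 124 kb on chromosome 7 (114415281 to 114539251, plus strand). UMIs were not scaled to gene length and nuclear RNA is rich in intron sequence, so levels are compared between cell types for 1 gene. Shares of UMIs among several genes are given below only for how they shift between types. Listed genes on the opposite strand overlap Pde3a (Gm28523), Pde5a (4930447N08Rik), Pde8b (Gm48420 and Gm16243) and Pde10a (Gm17087). Whether counting used the strand is not given in the sources used here.

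Depth was 25045167 to 38593706 UMIs per library, in 8062 to 10642 barcodes, of which 5750, 8943, 6437, 7306 and 6309 were kept as nuclei. Clusters were named by resemblance to marker lists, and all 26 listed Pde genes were left out of the genes used to cluster, so that the levels below did not set the cell types. Types had at least 50 nuclei in each library in 8 cases: cardiomyocytes (6442 nuclei in all), fibroblasts (12663), endothelial cells (7023), endocardial cells (1360), lymphatic endothelial cells (788), pericytes (2192), smooth muscle cells (522) and macrophages (2534). All 8 listed markers of each of these types were detected in it. Cardiomyocyte nuclei were deepest, with a median of 5870 to 8048 UMIs per nucleus, against 1558 to 3492 in the other types. Any pair of libraries shared 14 to 28 barcodes.

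In short, the 10 genes divided by cell type. Pde4d, Pde4b and Pde1c were highest in cardiomyocytes, Pde3a and Pde5a in smooth muscle, Pde8b in pericytes, Pde1a in fibroblasts, Pde3b in macrophages, and Pde7b and Pde10a in lymphatic endothelium. In a joint edgeR fit of the 40 sums (8 types in 5 libraries), 69 of the 80 gene and type pairs passed an adjusted p of 0.05 of Benjamini-Hochberg, 33 higher and 36 lower than the mean of the other types. Over all genes, 50.8% of gene and type pairs passed.

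**Figure D1:**
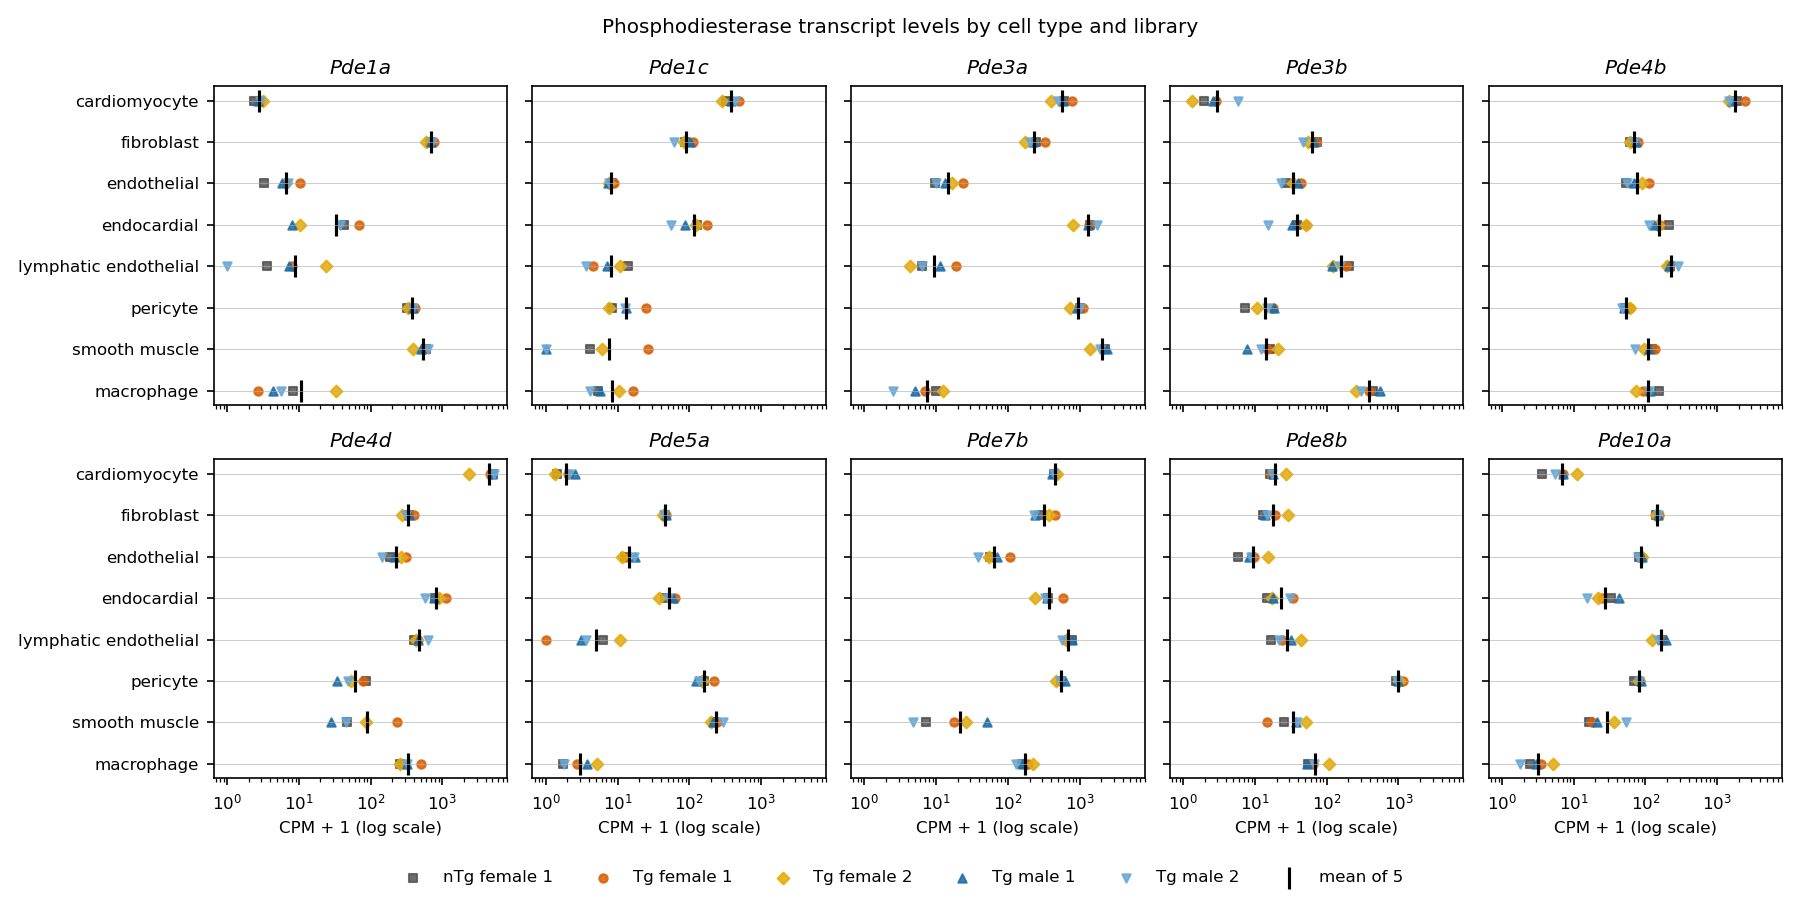
CPM + 1 on a log axis (x) of each gene in 8 cell types (y), with 1 point per library and a bar at the mean of 5 libraries. Pde8b is high in pericytes alone, with a mean of 1000.5 CPM against 68.3 CPM in the next type, while Pde7b is at 172 CPM or more in 6 of the 8 types.

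The calcium and calmodulin dependent genes peaked in different types, Pde1c in cardiomyocytes and Pde1a in fibroblasts. Pde1c had 320, 492, 289, 383 and 435 CPM in cardiomyocytes, a mean of 384 ± 83 (SD, n = 5). Endocardial cells came next at 114 ± 45 CPM and fibroblasts at 88.9 ± 20.2, and these neighbours overlapped. All 5 cardiomyocyte values lay above all endocardial values, and the 5 other types had means of 6.71 to 12.2 CPM. In the edgeR fit, Pde1c in cardiomyocytes exceeded the mean of the other types by 5.13 on the log2 scale (SE 0.12, adjusted p = 9.1e-32).

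Pde1a was lowest in cardiomyocytes and high in fibroblasts and both mural types. It had 665, 760, 588, 691 and 719 CPM in fibroblasts, a mean of 685 ± 65. Smooth muscle (536 ± 97 CPM) and pericytes (374 ± 41) followed, the former overlapping fibroblasts but lower in 5 of 5 libraries. Cardiomyocytes had 1.81 ± 0.29 CPM, 378 times less than fibroblasts. Of the UMIs of this pair of genes, Pde1c made up 99.5% ± 0.1 in cardiomyocytes, 78.7% ± 14.2 in endocardial cells, 11.5% ± 2.2 in fibroblasts, 3.05% ± 1.35 in pericytes and 1.22% ± 1.81 in smooth muscle. Macrophages, endothelial and lymphatic endothelial cells had at most 9.73 CPM of either gene on average, so their ratio rests on few UMIs.

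Of the cGMP-inhibited family, Pde3a was highest in smooth muscle and Pde3b in macrophages, and fibroblasts held both. Pde3a, the isoform best known from heart and vascular muscle, had 2265, 2109, 1383, 2375 and 1917 CPM in smooth muscle, a mean of 2010 ± 390. Endocardial cells had 1316 ± 340 CPM, pericytes 954 ± 139 and cardiomyocytes 569 ± 137. Each of these neighbours overlapped in range, yet the order held in 5 of 5 libraries. Fibroblasts had 232 ± 59 CPM, below every cardiomyocyte value, and endothelial, lymphatic endothelial and macrophage means were 13.6, 8.37 and 6.39 CPM. On the log2 scale Pde3a in smooth muscle exceeded the other types by 4.4 (SE 0.11, edgeR adjusted p = 3.2e-30), and in endocardial cells by 3.48 (SE 0.11, adjusted p = 1.9e-26).

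Pde3b, the isoform known from insulin action in fat, followed another order. Macrophages had 440, 385, 254, 554 and 299 CPM, a mean of 386 ± 118, above every value of lymphatic endothelium (156 ± 38 CPM), which in turn lay above every fibroblast value (61.3 ± 11). Cardiomyocytes had 1.93 ± 1.74 CPM. In macrophages Pde3b exceeded the other types by 3.95 on the log2 scale (SE 0.14, edgeR adjusted p = 5.8e-25). Pde3a made up 99.7% ± 0.4 of the UMIs of the pair in cardiomyocytes, 99.3% ± 0.4 in smooth muscle, 1.82% ± 1.54 in macrophages and 5.09% ± 3.16 in lymphatic endothelium. Fibroblasts (78.8% ± 2.9) and endothelial cells (28.9% ± 4.4) lay between. A cluster of 12 nuclei named adipocyte, pooled over libraries, had 2091 CPM of Pde3b (143 UMIs, exact Poisson interval 1763 to 2464, counting error only), and T or NK lymphocytes had 400.2 CPM (336 to 473, 131 nuclei).

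Both cAMP-specific PDE4 genes were cardiomyocyte-high. Pde4d, whose products attach to receptor and calcium channel complexes, had 5047, 4679, 2352, 4915 and 5219 CPM in cardiomyocytes, a mean of 4442 ± 1185. The library labelled Tg female 2 was low, and the other 4 lay close together. Endocardial cells had 826 ± 198 CPM and lymphatic endothelial cells 476 ± 88, and all cardiomyocyte values lay above all of these. Fibroblasts, macrophages and endothelial cells had means of 332, 331 and 223 CPM with overlapping ranges, and pericytes were lowest with 59.1 ± 21.2. In the edgeR fit Pde4d in cardiomyocytes exceeded the other types by 4.8 on the log2 scale (SE 0.13, adjusted p = 8.4e-30).

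Pde4b had 1864, 2417, 1475, 1630 and 1471 CPM in cardiomyocytes, a mean of 1772 ± 395, which is 7.93 times that of lymphatic endothelium (223 ± 34 CPM). Ranges of the 2 types did not overlap. The 7 types other than cardiomyocytes formed a graded series down to pericytes (53.3 ± 6.7 CPM), and each neighbour in it overlapped the next. Its excess in cardiomyocytes was 4.71 on the log2 scale (SE 0.09, edgeR adjusted p = 3e-35). Pde4d made up 70.7% ± 6.8 of the UMIs of this pair in cardiomyocytes, 84.2% ± 3.1 in endocardial cells, 83% ± 1.3 in fibroblasts, and 51.3% ± 8.5 in pericytes. In cardiomyocytes the share ran from 61.5% in Tg female 2 to 78% in Tg male 2.

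Droplet libraries hold free RNA from broken cells, and cardiomyocytes gave the most UMIs per nucleus, so cardiomyocyte-high genes were set beside 8 cardiomyocyte markers in the other types. In pericytes the summed markers stood at 2.72% to 5.26% of the cardiomyocyte level of the same library, Pde4d at 0.673% to 2.23%, and Pde4b at 2.49% to 4.1%. In smooth muscle the markers stood at 7.02% to 8.7%, Pde4d at 0.546% to 4.96%, and Pde4b at 4.8% to 6.79%. Pde4d lay below the summed markers in all 5 libraries of both mural types. So did Pde4b, except in pericytes of Tg male 2 (3.14% against 2.72%). Single markers ran from 0.51% to 54.4% in pericytes and from 1.08% to 118% in smooth muscle, so the summed level is a rough guide. The part of free RNA in the Pde4d and Pde4b of these types was not tested. In fibroblasts Pde4d (6.02% to 11.5%) and Pde1c (13.8% to 28.8%) lay above the summed markers (2.17% to 4.01%) in each library, and so did Pde4d (10.8% to 37.9%), Pde4b (6.63% to 11.3%) and Pde1c (12.6% to 43.1%) in endocardial cells (2.38% to 4.58%). Endothelial Pde4d (2.75% to 11.1%) and Pde1c (1.54% to 2.3%) did not stand clear of the markers (3.21% to 5.17%). Single markers ran from 0.43% to 43.4% in fibroblasts, from 0.60% to 45.2% in endocardial cells and from 0.57% to 57.9% in endothelial cells. The summed level is thus a rough guide in these types too.

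**Figure D2:**
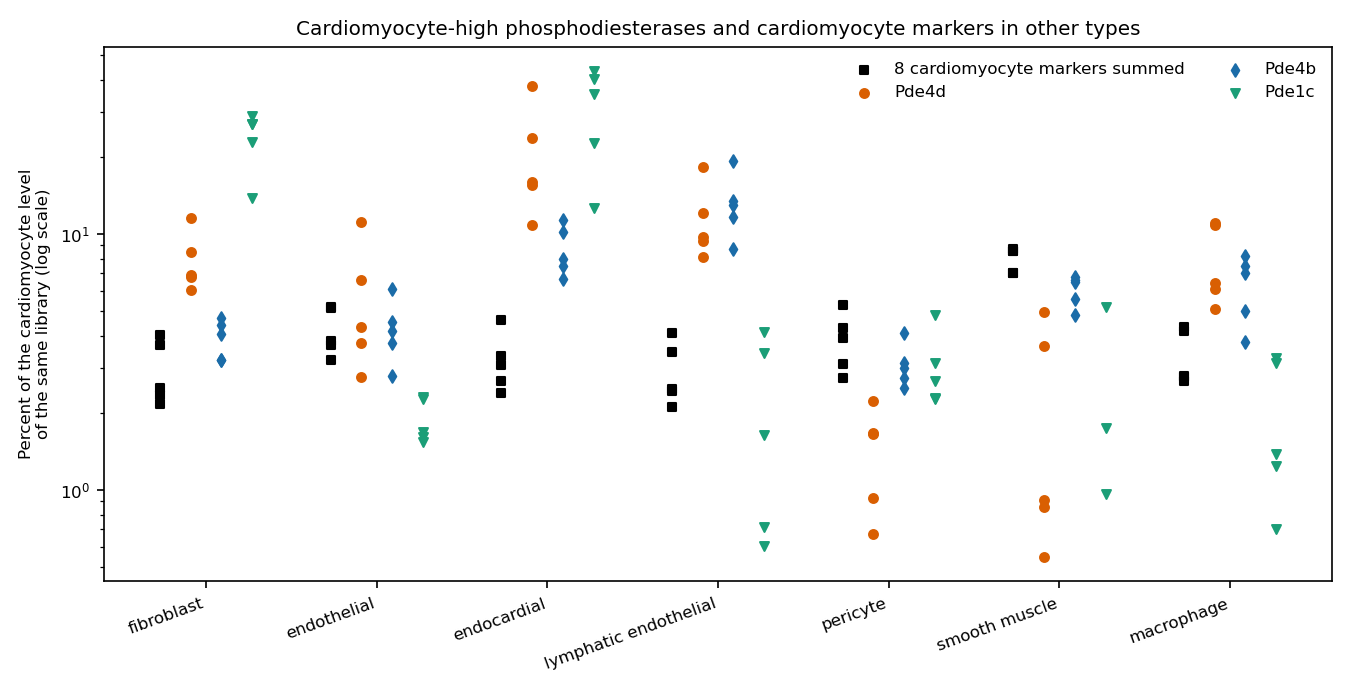
Level in 7 types as a percent of the cardiomyocyte level of the same library (y, log axis), with 1 point per library, for 8 summed cardiomyocyte markers, Pde4d, Pde4b and Pde1c; 2 smooth muscle values of Pde1c that are 0 are not drawn. Pde4d lies below the summed markers in every library of pericytes and smooth muscle and above their sum in every library of endocardial cells.

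The cGMP-specific Pde5a, the target of sildenafil, was a mural gene. Smooth muscle had 218, 241, 202, 211 and 290 CPM, a mean of 232 ± 35, and pericytes had 158 ± 36. Their ranges overlapped, with smooth muscle higher in 5 of 5 libraries. Endocardial cells (50.6 ± 10.2 CPM) and fibroblasts (44.5 ± 1.7) formed a lower tier, and cardiomyocytes had 0.892 ± 0.511 CPM, 261 times less than smooth muscle. On the log2 scale the excess was 4.4 in smooth muscle (SE 0.15, edgeR adjusted p = 3.6e-25) and 3.59 in pericytes (SE 0.13, adjusted p = 7e-25). Since 4930447N08Rik overlaps Pde5a on the other strand, part of either count could belong to its partner.

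Pde8b, a cAMP-specific enzyme of high affinity, was a pericyte gene. Pericytes had 917, 1153, 1007, 977 and 949 CPM, a mean of 1000.5 ± 91.6. The next type, macrophages, had 68.3 ± 22.0 CPM, 14.7 times less, and smooth muscle, the other mural type, had 32.5 ± 14. Every pericyte value lay above every value elsewhere, and from smooth muscle down each type overlapped the next. The excess in pericytes was 5.43 on the log2 scale (SE 0.09, edgeR adjusted p = 2.8e-36).

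Pde7b, also cAMP-specific, was spread more evenly. Lymphatic endothelium had 779, 634, 638, 785 and 560 CPM, a mean of 679 ± 99. Pericytes (541 ± 55 CPM), cardiomyocytes (447 ± 27), endocardial cells (371 ± 131) and fibroblasts (316 ± 95) followed, each overlapping the next. Macrophages had 172 ± 36 CPM and endothelial cells 63.8 ± 25.5, below every fibroblast value, and smooth muscle was lowest with 20.5 ± 18.8. The order at the top depended on scaling: after TMM scaling, cardiomyocytes came first with 645 ± 42 CPM and lymphatic endothelium second with 610.4 ± 96.4 CPM. In the edgeR fit the difference of Pde7b in smooth muscle from the mean of the other types was -3.86 on the log2 scale (SE 0.29, adjusted p = 1.6e-14), while in pericytes it was 1.5 (SE 0.13, adjusted p = 9.1e-13).

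Pde10a, the dual enzyme best known from striatal neurons, had 168, 175, 122, 196 and 149 CPM in lymphatic endothelium, a mean of 162 ± 28. Fibroblasts had 146 ± 7 CPM, and the 2 types overlapped, with lymphatic endothelium higher in 3 of 5 libraries. Endothelial cells (84.9 ± 5.8 CPM) and pericytes (79.8 ± 7.3) overlapped as well. Cardiomyocytes (5.97 ± 2.80 CPM) and macrophages (2.21 ± 1.30) were lowest. Within fibroblasts the cluster led by Gfpt2, Plcxd3 and Adgrd1 had 228 CPM pooled over libraries and the one led by Dkk3, Vit and Fgf10 had 103 CPM. Within endothelial cells the cluster led by Sema3g, Gja5 and Lama3, genes of arterial endothelium, had 30.7 CPM against 106 CPM in the cluster led by Gm12002, Cobl and Ccdc85a. Outside the 8 types, 120 mesothelial nuclei had 856 CPM of Pde10a (433 UMIs, exact Poisson interval 778 to 941).

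Counts of genes that passed the edgeR test by type are read against all 14035 genes tested, since types differ in most genes. In cardiomyocytes 5 of the 10 genes were higher (40.9% of all genes were) and 5 lower (36.7%). In fibroblasts 7 were higher (29.9%) and 2 lower (25.5%), and in pericytes 6 were higher (21.9%) and 4 lower (23.6%). Endocardial cells had 5 higher (22.0%) and 1 lower (14.9%), and smooth muscle had 3 higher (18.4%) and 4 lower (16.2%). The shares lower in fibroblasts and endocardial cells were near or below the background. Endothelial cells had 1 higher (30.2%) and 8 lower (26.6%), macrophages 2 higher (31.0%) and 7 lower (31.3%), and lymphatic endothelium 4 higher (19.2%) and 5 lower (17.6%). The fold is against the mean of the log2 levels, so 9 of the 69 calls had a sign opposite to the difference of mean CPM. One such call was Pde3a in cardiomyocytes, higher by 2.78 on the log2 scale although its mean of 569 CPM was below the 649 CPM averaged over the other types.

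The summed level of the 10 genes was 7642 ± 1499 CPM in cardiomyocytes, 3245 ± 287 in pericytes, 3073 ± 453 in smooth muscle and 2947 ± 472 in endocardial cells. Fibroblasts had 1991 ± 246 CPM, lymphatic endothelium 1750 ± 98, macrophages 1094 ± 146 and endothelial cells 527 ± 130. Which genes made up that sum shifted between types. Pde4d held 57.4% ± 7.4 of it in cardiomyocytes, 41.9% ± 2.9 in endothelial cells, 2.86% ± 2.52 in smooth muscle and 1.81% ± 0.61 in pericytes. As given above, Pde4d in endothelial cells, smooth muscle and pericytes did not stand clear of the cardiomyocyte markers. The part of free RNA in these shares was not tested. Pde3a held 65% ± 4.6 in smooth muscle, 44.6% ± 9.8 in endocardial cells, 29.3% ± 2.5 in pericytes and 7.46% ± 0.98 in cardiomyocytes. Pde8b held 30.9% ± 2.3 in pericytes and 1.13% ± 0.68 in smooth muscle, and Pde1a held 34.6% ± 2.9 in fibroblasts.

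**Figure D3:**
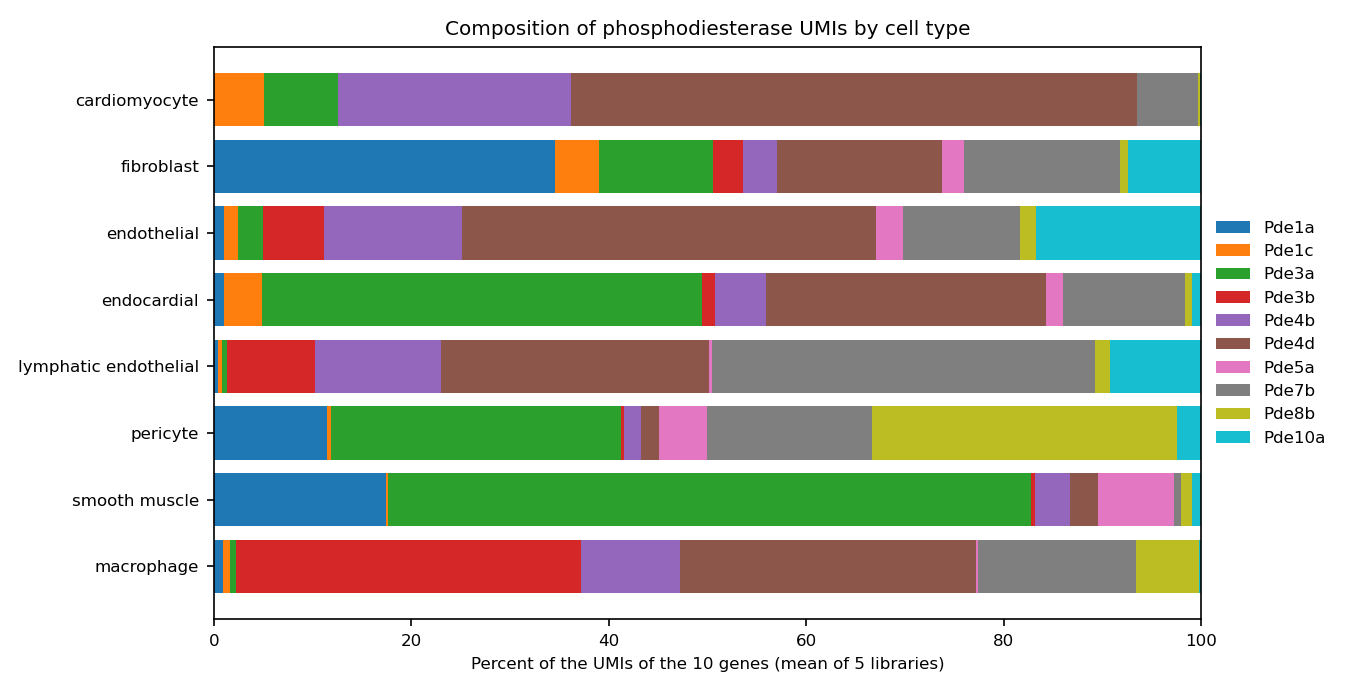
Stacked bars from 0 to 100 give the mean share over 5 libraries of each gene among the UMIs of the 10 genes (x, percent) in 8 cell types (y). Pde4d fills 57.4% of the cardiomyocyte bar, Pde3a 65% of the smooth muscle bar and Pde7b 38.8% of the lymphatic endothelial bar.

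Grouped by substrate, the cAMP-specific genes (PDE4, PDE7 and PDE8) made up 87.3% ± 1.5 of the summed UMIs in cardiomyocytes, 80.3% ± 2.4 in lymphatic endothelium, 51.1% ± 2.2 in pericytes and 8.18% ± 3.10 in smooth muscle. The 5 cardiomyocyte values ran from 85.6% to 88.9%, although Pde4d alone varied more. The dual PDE1 genes held 39% ± 2.6 in fibroblasts, and PDE3 held 65.5% ± 4.4 in smooth muscle and 35.5% ± 7.8 in macrophages. Pde5a held at most 7.67% ± 1.39, in smooth muscle. These shares carry the length and capture of each gene, so only their shifts between types are comparable.

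At 1 fixed depth of 1000 UMIs per nucleus, a UMI of Pde4d was found in 90.6% ± 7.9 of cardiomyocyte nuclei and in 4.61% ± 2.13 of pericyte nuclei. Without thinning these shares were 98% ± 1.6 and 8.71% ± 2.89. Pde3a was found in 79.2% ± 4.3 of smooth muscle nuclei at the fixed depth (94.8% unthinned) and in 0.349% ± 0.354 of macrophage nuclei (1.18% unthinned). Pde8b was found in 56.9% ± 2.1 of pericyte nuclei (76.1% unthinned) against 0.721% ± 0.318 of endothelial nuclei (1.4% unthinned). Pde1a was found in 43.7% ± 3.1 of fibroblast nuclei (70.7% unthinned) and 0.127% ± 0.087 of cardiomyocyte nuclei (0.963% unthinned). Median depths were 1675 to 2602 UMIs per nucleus in pericytes, 1558 to 2201 in endothelial cells, 2180 to 3492 in smooth muscle, 1806.5 to 2745 in macrophages and 2074 to 3019 in fibroblasts. At the fixed depth, the type with the highest share was the type with the highest CPM for 10 of 10 genes. Thinning left out 199 of 12663 fibroblast, 345 of 7023 endothelial and 62 of 6442 cardiomyocyte nuclei that had fewer UMIs. It also left out 138 of 2534 macrophage, 61 of 2192 pericyte, 25 of 1360 endocardial, 10 of 522 smooth muscle and 9 of 788 lymphatic endothelial nuclei.

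Among the 10 genes themselves, Pearson's r of log2(CPM + 1) over the 40 sums was highest for Pde1a and Pde5a (0.85), Pde4b and Pde4d (0.83) and Pde1c and Pde4d (0.77). It was lowest for Pde3a and Pde3b (-0.70) and Pde4d and Pde5a (-0.69). These sums share libraries and cell types, and each r describes the pattern across types only. Of 13835 genes compared, those most like Pde3a were Gata4 (r = 0.94) and Gm28523 (0.94), the latter overlapping Pde3a on the other strand. The gene most like Pde5a was 4930447N08Rik (0.96), its own overlapping neighbour, with Nfatc4 (0.93) after it. Pde1a was nearest to Ebf2 (0.95) and Ddr2 (0.95), Pde1c to Tbx5 (0.89) and Hand2os1 (0.89), and Pde3b to 4933406I18Rik (0.95) and Dab2 (0.93). Pde4b was nearest to Tmem117 (0.92) and Pptc7 (0.92), and Pde4d to Ppip5k2 (0.86) and Fmo5 (0.86). Pde7b was nearest to Raph1 (0.84) and Tfpi (0.79), Pde8b to Ralgps1 (0.91) and Vac14 (0.91), and Pde10a to Unc5b (0.94) and Col4a1 (0.93).

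Another 6 phosphodiesterases from the pathway list were measured in the same sums. That list was chosen with earlier results of these data known. Pde2a, which cGMP stimulates, had 186 ± 38 CPM in endothelial cells and 168 ± 52 in lymphatic endothelium, against 17.5 ± 5.1 in cardiomyocytes. Pde8a had 207 ± 23 CPM in endothelial cells and 226 ± 31 in lymphatic endothelium. Pde7a had 520 ± 85 CPM in cardiomyocytes, 183 ± 24 in smooth muscle and 115 or less on average in the other types, and was called higher in smooth muscle (log2 0.96, SE 0.1, edgeR adjusted p = 4.4e-10), where Pde7b was lower. Pde1b was a macrophage gene at 37.8 ± 7.6 CPM, Pde4a was highest in cardiomyocytes (92.7 ± 13.6) and Pde9a in endocardial cells (60.7 ± 11.3). In the edgeR fit each of these 6 was higher in its highest type, with log2 differences of 1.47 (Pde8a in lymphatic endothelium, SE 0.1, adjusted p = 1.7e-15) to 4.18 (Pde1b in macrophages, SE 0.19, adjusted p = 1.1e-21). Each type was picked as the highest from these same sums, so the sign of its difference adds no support. The share of all genes called in their highest type was not counted, and 50.8% of all gene and type pairs passed in either direction.

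The wider pathway list held 68 genes (14 other phosphodiesterases, 16 cyclases, 19 effectors such as protein kinase A subunits, 11 scaffolds and 8 receptors that act on cAMP), of which 55 were tested between types. In cardiomyocytes 24 were higher (40.9% of all genes were) and 22 lower (36.7%), shares near those of all genes. In smooth muscle 25 were higher (18.4% of all genes) and 9 lower (16.2%). Pericytes had 28 higher (21.9%) and 15 lower (23.6%), and macrophages 12 higher (31.0%) and 28 lower (31.3%). By group, 7 of 12 cyclases were higher and 1 lower in smooth muscle, with a median log2 difference of 2.03, while in cardiomyocytes 4 were higher and 7 lower (median -1.81). The medians over all genes tested were -0.097 in smooth muscle and -0.0019 in cardiomyocytes. Of 14 effectors tested, 8 were higher and 0 lower in smooth muscle (8 had an unadjusted p under 0.05), and 8 were higher and 4 lower in cardiomyocytes.

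The design also allowed a comparison of sexes within the Tg label, with 2 libraries of each sex, 1 edgeR fit per type. As given above, Ccna2 in cardiomyocytes was at 0.53 CPM in Tg female 1. The remaining libraries of this label had 145 to 837 CPM. The sexes are thus compared by label, not within 1 level of Ccna2, and the part of Ccna2 in the differences was not tested. Of 69 gene and type pairs tested, 1 passed, against 0.193% of all gene and type pairs. It was Pde4d in smooth muscle, where 0.351% of the 5131 genes tested were called in either direction and 0.253% as higher in females. It had 46.1, 232, 85.8, 26.8 and 44.6 CPM, from 15, 137, 17, 8 and 12 UMIs. Both Tg female libraries lay above both Tg male libraries, and the library labelled Tg female 1 stood far above the rest. The difference (female minus male) was 2.29 on the log2 scale (SE 0.44, adjusted p = 0.015). It was lost without Tg female 1 (log2 1.36, adjusted p = 0.371), without Tg male 1 (1.93, 0.0701), and with DESeq2 (2.24, 0.268). Leaving out 1 library leaves 1 in its group, which is then assumed to vary like the other group.

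Several measured facts stand beside that call. In Tg female 2, 12 of the 17 UMIs came from 1 nucleus, and in Tg male 1, 7 of 8 did. Without the nucleus richest in Pde4d in each library, a step chosen after seeing the data, the levels were 31.2, 206, 26.3, 3.4 and 37.6 CPM, so that Tg female 2 no longer lay above Tg male 2. The 8 cardiomyocyte markers summed to 3915, 4169, 3457, 3200 and 3630 CPM in smooth muscle, and Pde4d there lay below their percent of the cardiomyocyte level. Tg female 1 smooth muscle also had more of the endocardial markers (412 CPM against 26 to 120 in the others), of which Smoc1 gave 302 CPM (7.43 to 46.1 in the others), and of the Schwann markers (264 CPM against 40.2 to 90.8). None of the endocardial markers was at 0 in smooth muscle, and of the Schwann markers Sox10 was. Their part in the result was not tested.

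Another 11 pairs had an unadjusted p under 0.05 and did not pass, with edgeR adjusted p of 0.207 to 0.706, and all 12 were higher in the Tg female libraries. Over all genes, in either direction, that unadjusted p was met by 1059 of 15017 in cardiomyocytes, 1486 of 15476 in fibroblasts and 1166 of 12916 in endothelial cells. It was met by 742 of 9750 in endocardial cells, 451 of 7297 in lymphatic endothelium and 702 of 10316 in pericytes. In smooth muscle 269 of 5131 met it, and in macrophages 943 of 10754. By ranges, of 64 pairs of these genes with a mean of at least 10 CPM, both Tg female libraries lay above both Tg male ones in 18 and below in 5, against 21.1% and 16.3% of all gene and type pairs. At the adjusted threshold, a stricter measure, edgeR calls over all genes were 45 higher and 122 lower in the Tg female libraries over the 8 types. Those calls include sex-linked genes. Directions at an unadjusted p under 0.05 were not counted over all genes. Pde7b in fibroblasts had the lowest adjusted p of the 11. Its levels were 298, 454, 366, 234 and 229 CPM, a log2 difference of 0.74 (SE 0.18, adjusted p = 0.207). Fibroblast clusters were unequally filled, as the cluster led by Entpd2, Pdgfra and Col15a1 held 55.3% of the fibroblasts of Tg female 2 and 15.8% to 24.7% in the other 4 libraries. Within that cluster Pde7b had 286, 409, 351, 188 and 227 CPM. In 5 of 5 fibroblast clusters both Tg female libraries lay above both Tg male ones. The clusters are parts of the same libraries, so they do not repeat the comparison. In the fibroblast sum 27.5% of genes had both Tg female libraries above, and the share over the 5 clusters was not measured.

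**Figure D4:**
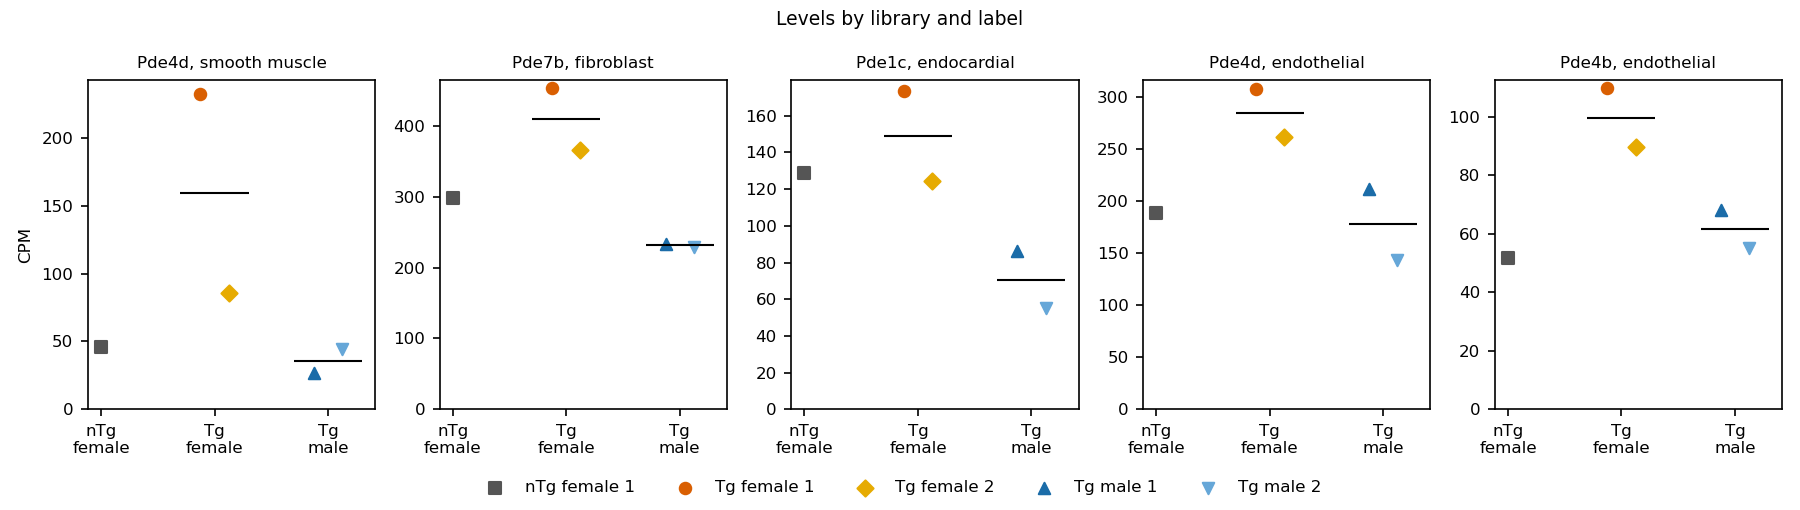
CPM (y, from 0) by label group (x) with 1 point per library and a bar at the mean of groups with 2 libraries, for 5 gene and type pairs with an unadjusted p under 0.05. Both Tg female points lie above both Tg male points in each panel, while only Pde4d in smooth muscle passed the adjusted threshold.

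**Figure D5:**
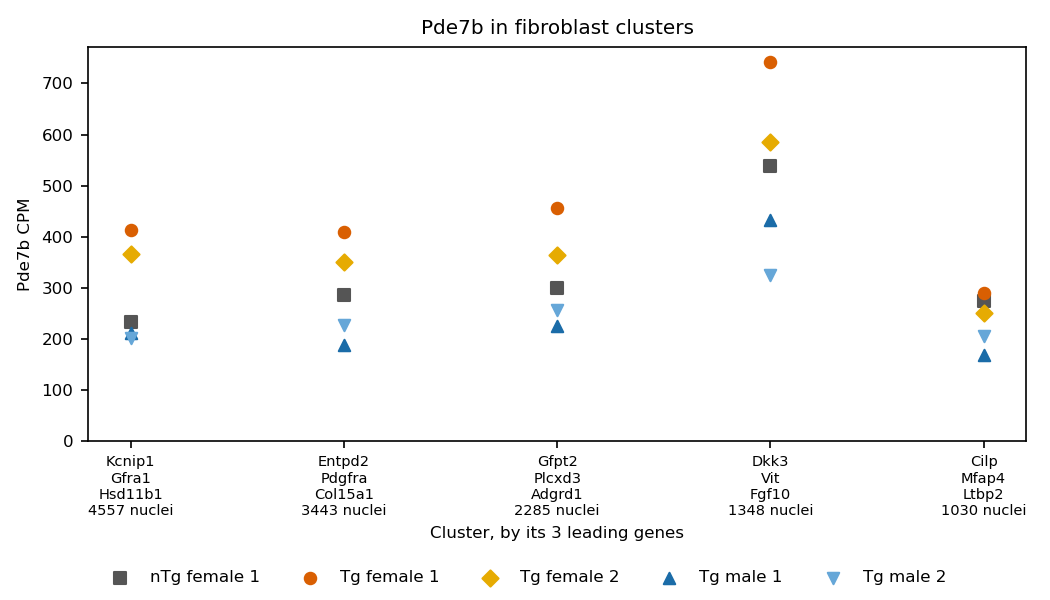
CPM (y, from 0) of Pde7b in 5 fibroblast clusters (x, each named by its 3 leading genes), with 1 point per library. Both Tg female points lie above both Tg male points in each cluster.

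Pde1c in endocardial cells had 129, 174, 125, 86.2 and 55 CPM (log2 1.03, SE 0.27, edgeR adjusted p = 0.278). Endothelial Pde4d had 188, 308, 262, 212 and 143 CPM (log2 0.62, SE 0.21, adjusted p = 0.376) and Pde4b 51.9, 110, 89.8, 68.2 and 55.2 CPM (log2 0.64, SE 0.19, adjusted p = 0.301). Pde8b in fibroblasts had 12, 18.2, 28.1, 12.8 and 13.5 CPM (log2 0.72, SE 0.25, adjusted p = 0.388). Pde3b in endocardial cells had 37.3, 51, 50.8, 31.7 and 14.1 CPM (log2 1.04, SE 0.38, adjusted p = 0.522), and Pde5a in pericytes 161, 218, 149, 125 and 137 CPM (log2 0.51, SE 0.22, adjusted p = 0.706). The others of the 12 were Pde4d in pericytes, Pde7b and Pde1c in macrophages and Pde3a in endothelial cells. Pde1a and Pde10a had no test with an unadjusted p under 0.05, and their log2 differences between the sexes were -0.20 to 1.08 and -0.58 to 0.53. The nTg female library lay between the Tg female libraries for endocardial Pde1c, among the Tg male libraries for endothelial Pde4d and below all 4 Tg libraries for endothelial Pde4b. The large cardiomyocyte genes showed no difference that passed: Pde4d differed by -0.56 on the log2 scale (SE 0.37, adjusted p = 0.865), Pde4b by 0.29 (SE 0.29, adjusted p = 0.941) and Pde3a by 0.09 (SE 0.32, adjusted p = 0.986). A test of sex by type terms over the 32 sums of the Tg libraries, chosen after seeing the data, called Pde4d (adjusted p = 0.0169), where 0.969% of 14136 genes were called. For the other 9 enzymes its adjusted p was 0.118 or higher. On the pathway list, edgeR called 0 of 330 gene and type pairs between the sexes, with 37 at an unadjusted p under 0.05, and DESeq2 called 1 of 259. Counts of all genes at that unadjusted p are given above by type.

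In cardiomyocytes the low Pde4d of Tg female 2 was present in the clusters as well as in the sum. The cluster led by 4930512H18Rik, Hs3st5 and Gm47644 had 4576, 4287, 1676, 4261 and 4696 CPM. The cluster led by Gm13481, Ptgds and Ankrd1, with Nppa and Nppb among its leading genes, had 4718, 3658, 2051, 4119 and 4514 CPM. Tg female 2 was the lowest library in 3 of 4 clusters. In the smallest, of 164 nuclei, Tg male 1 was lowest (1878 CPM against 2187 in Tg female 2). The same library stood apart in other genes too: in cardiomyocytes 275 genes were at least 2-fold above the mean of the other 4 libraries and outside their range (25 to 54 genes for each other library), and 64 were lower (27 to 85). It had the fewest UMIs, and the 8 cardiomyocyte markers summed to 44998, 48542, 40352, 45601 and 51702 CPM in cardiomyocytes, lowest in Tg female 2. In cardiomyocytes the 8 fibroblast markers summed to 132, 112, 265, 94.4 and 85.4 CPM, highest in Tg female 2. They were also highest in that library in endothelial cells (918 CPM against 215 to 321) and in macrophages (902 CPM against 198 to 304). The part of depth and of free RNA in its Pde4d level was not tested.

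With 1 library labelled nTg, values of that label are given beside the 4 labelled Tg without a test. Of the 80 gene and type pairs, the nTg value lay within the Tg range in 56, above it in 6 and below it in 18. Among the 63 pairs with a mean of at least 10 CPM, it lay above in 5 and below in 13, where 15.5% and 19.5% of all gene and type pairs did. Pde8b was below the Tg range in 6 of 8 types, with 917 against 1021 ± 91 CPM in pericytes. These values all come from the 1 nTg library, and the share of all genes below in as many types was not counted. In cardiomyocytes the gap was small (15.2 CPM against a lowest Tg value of 15.7). The nTg values in endocardial and lymphatic endothelial cells rest on 10 and 6 UMIs. A difference of 2-fold or more from the Tg mean, outside the Tg range and with at least 10 CPM, was seen in 3 pairs. Pde1c in lymphatic endothelium was higher (13.2 CPM, exact Poisson interval 4.27 to 30.7, against 5.57 ± 3.26), where 4.86% of genes were. Pde3b in pericytes was lower (6.24 CPM, 2.29 to 13.6, against 14.5 ± 3.5), where 2.59% were, and so was Pde10a in smooth muscle (15.4 CPM, 4.99 to 35.9, against 31.1 ± 16.1), where 9.30% were. These 3 rest on 5, 6 and 5 UMIs of the nTg library, and the counting intervals of Pde1c and Pde10a include the Tg mean while that of Pde3b lies below it. None of the 10 genes in cardiomyocytes met the rule, where 0.283% of genes were higher and 0.634% lower: Pde4d had 5047 CPM in the nTg library against 4291 ± 1312 (n = 4) and Pde4b 1864 against 1748 ± 452. Pde4b outside cardiomyocytes lay beyond the Tg range by less than 2-fold in 3 types, with 212 against 138 ± 22 CPM in endocardial cells, 153 against 97.2 ± 18.7 in macrophages and 51.9 against 80.7 ± 24 in endothelial cells. Within the Tg range lay Pde1a in fibroblasts (665 against 690 ± 74 CPM), Pde3a (2265 against 1946 ± 420) and Pde5a (218 against 236 ± 40) in smooth muscle, and Pde7b in lymphatic endothelium (779 against 654 ± 94).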

How the data were processed

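Single-nucleus libraries of mouse heart were deposited by the authors as raw UMI counts per gene and barcode, written by Cell Ranger 7.0.0 per the file headers, with the build mm10 per the submitters' processing notes. The annotation, the treatment of introns and strand, and the calling of cells are not given in the sources used here. The 10 genes and all lists were chosen with earlier results of these data known.

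Barcodes with fewer than 200 genes or with 5% or more mitochondrial UMIs were left out, as were the 8% with the highest doublet scores in each library, since the automatic threshold called 0% in Tg female 2. Nuclei were clustered with scanpy 1.11.5 (2000 variable genes, 30 components, 15 neighbours, Leiden resolution 1), without Pde genes, Ccna2 and sex-linked genes. Clusters were named by lists of 8 markers, so a name marks resemblance to a list. Clusters that went against their best name stayed unnamed, and were 133, 132 and 429 nuclei in size.

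Counts were summed per library and type where each library had at least 50 nuclei. Sums were tested with edgeR 4.0.16 (R 4.3.3; quasi-likelihood test, TMM, filter on low counts, Benjamini-Hochberg over all genes tested, threshold 0.05), with the library as a block between types. Sexes were compared in the 4 libraries labelled Tg, 1 fit per type. Exact Poisson intervals are at 95% and cover counting error only. The ± of shares of nuclei is the SD over libraries. All 10 genes are named in each comparison. Another 6 phosphodiesterases are named between types only, as are, for each of the 10 genes, the 2 other genes with the highest Pearson correlation. Alternatives were DESeq2 1.42.0 and its size factors, no filter on low counts, TMM-scaled CPM, Leiden resolution 0.5, other depths of thinning, a replicate block, and leaving out each library. The tests were tested on simulated data. Promoter windows are the 250 bases before starts in RefSeq (GRCm38.p6). The values of 1 cardiomyocyte cluster are not reported here.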

Additional observations from a re-analysis of the deposited data

Results flagged for a closer look

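Of 63 gene and type pairs with a mean of at least 10 CPM, 7 held 1 library far from the other 4, where chance gives about 1 in 20 and 7.26% of all 77791 gene and type pairs did by the same measure. The library labelled Tg male 2 stood high in lymphatic endothelium for Pde4b, with 282.785 CPM, and for Pde4d, with 628.412 CPM. Pde4d of Tg female 1 stood high in macrophages, with 506.483 CPM, and in smooth muscle, with 232.258 CPM from 137 UMIs. In Tg female 2, Pde4d stood low in cardiomyocytes, with 2351.7 CPM, while Pde8b stood high in cardiomyocytes, with 25.8754 CPM, and in macrophages, with 106.326 CPM.

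The difference of Pde4d between the sexes was not the same in all types by the sex by type terms of an edgeR fit over the Tg libraries (F = 7.43, adjusted p = 0.0169). Its log2 difference ran from -0.56 in cardiomyocytes to 2.29 in smooth muscle, and the libraries named above are among the 4 compared.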

How the results depend on the processing

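The 69 calls between types were 68 or 69 under every alternative run, and the type with the highest level was the same for 10 of 10 genes, except under TMM-scaled CPM (9, as Pde7b moved). TMM scaling raised cardiomyocyte levels, to 559 CPM for Pde1c, 2576 for Pde4b and 6499 for Pde4d. The single call between the sexes became 0 with all 5 libraries and no covariate, and 4 of 80 pairs with no filter on low counts. Without that filter, calls over all genes changed too. In fibroblasts they went from 9 higher and 43 lower to 329 and 420, while in cardiomyocytes they stayed at 0 and 4. The cause was not tested. Pde7b in fibroblasts passed with DESeq2 (log2 0.73, adjusted p = 0.032) and in edgeR with no filter (log2 0.74, adjusted p = 0.018). DESeq2 also called more fibroblast genes, 63 higher and 171 lower of 13675. The log2 difference of Pde7b was 0.54 without Tg female 1 and 0.90 without Tg female 2. Those 2 fits have 1 Tg female library, assumed to vary like the males. Pde4d in smooth muscle gave a log2 difference of 1.89 (edgeR adjusted p = 0.530) with 5 libraries. The 3 pairs in which nTg female 1 stood apart became 9 against the Tg female libraries alone, and 3 to 6 when leaving out 1 Tg library.

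The replicate block gave 2 calls between the sexes, Pde4d in smooth muscle and in endothelial cells (log2 0.64, edgeR adjusted p = 0.0458). Calls over all genes rose as well, from 23 to 364 of 12916 in endothelial cells and from 18 to 35 of 5131 in smooth muscle. Over the 8 types they rose from 167 to 926. The replicate numbers are only shared and nothing states a pairing. Same-numbered libraries deviated together with correlations of -0.01 to 0.15 over the types.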

Other observations

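Small types and unnamed clusters, pooled over libraries and with no test, held further high levels. B lymphocytes (80 nuclei) had 1158 CPM of Pde4d (281 UMIs, exact Poisson interval 1026 to 1301) and 659 CPM of Pde4b (561 to 770), although Pde4d ran from 0 to 2338 CPM over libraries. Schwann cells (184 nuclei) had 737 CPM of Pde4d and 594 CPM of Pde7b. Mesothelial cells had 969 CPM of Pde4d and 516 CPM of Pde7b beside their Pde10a.

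An unnamed cluster of 133 nuclei led by Fgf12, Fbn2 and Cntn2 had 3537 CPM of Pde4d and 877 CPM of Pde7b, the latter above the mean of each of the 8 types. The unnamed cluster of 132 nuclei led by the cell-cycle genes Top2a, Diaph3 and Lockd had 337 CPM of Pde4d and 229 CPM of Pde7b.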
